A study of Mus musculus with 8 samples.

Results

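The AMP-activated protein kinase (AMPK) is built from 7 subunit genes in the mouse, and these were followed together with Stk11, the gene of its upstream kinase LKB1. The 8 genes were chosen by name from the 55487 genes of the deposited table, and all 8 had at least 10 counts in every library, as did 15135 genes in all. RNA came from hindlimb muscle of 8 male C57BL/6J mice aged 10 weeks. Both hindlimbs were held in casts for 8 days, and K14Q MOTS-c was injected intraperitoneally 2 times a day, to a daily dose of 15 mg/kg. MOTS-c is a microprotein encoded in mitochondrial DNA, and K14Q MOTS-c is its natural variant with a glutamine in place of a lysine. The sample labels name vastus lateralis as the tissue, whereas the study's methods name gastrocnemius, and the muscle could not be told from the values. Cast mice without the peptide, mice given the wild-type peptide and mice without a cast were not analysed here, so no value below is an effect of the peptide or of the cast.

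AMPK is the cell's sensor of low energy. An alpha subunit carries the kinase, a beta subunit ties the complex together and binds glycogen, and a gamma subunit binds AMP, ADP and ATP. When AMP rises, LKB1 phosphorylates a threonine in the activation loop of the alpha subunit, and the active kinase turns on glucose uptake and fat oxidation and turns off synthesis of fat and glycogen. Skeletal muscle of rodents is known for complexes with alpha2 and beta2, and the gamma3 subunit is known as the form found in fast, glycolytic muscle.

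The activation loop is shown because it is the site where LKB1 acts and because it shows how far the alpha genes can be told apart by sequence. The coding stretches were read from the GENCODE M21 transcripts (GRCm38), 5′ to 3′, with the codon of the phosphorylated threonine in capitals. The threonine is residue 183 in the Prkaa1 product and residue 172 in the Prkaa2 product.
Prkaa1, residues 175 to 190: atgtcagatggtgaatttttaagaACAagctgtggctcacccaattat
Prkaa2, residues 164 to 179: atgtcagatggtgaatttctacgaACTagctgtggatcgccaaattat
The encoded residues were identical at 16 of 16 positions, while the bases differed at 6 of 48. The longest run that both coding sequences share lies near their start and is 35 bases long, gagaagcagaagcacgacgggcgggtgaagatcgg. Over the whole products, 76.2% of the aligned residues of alpha1 (559 residues) and alpha2 (552 residues) were identical. The identity was 71.3% between beta1 and beta2, 74.2% between gamma1 and gamma2, 60.6% between gamma1 and gamma3 and 48.2% between gamma2 and gamma3. No stretch of 50 bases in the transcripts of any of the 8 genes occurred in another of the 8, so reads of that length were not shared between the isoform genes. Of such stretches, 28.8% in Prkag1, 11.5% in Prkag2, 3.84% in Stk11 and 1.02% in Prkag3 also occurred in genes outside the 8, and none did in the other 4 genes.

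The libraries held between 23985356 and 33012497 counts, and the size factors, inferred from the deposited values, ran from 0.906 to 1.20. Each library was distinct, with a chi-square of 13.6 to 98.5 per degree of freedom in the 28 pairs of libraries. All 6 skeletal muscle markers, which do not tell one hindlimb muscle from another, passed the minimum count, and their summed level was between 37771 and 50944 TPM, a length-scaled transcript level that sums to the same total in each library. Among the adult myosin heavy chains, Myh4, the gene of the fastest type, took 82.1% ± 2.56 (SD, n = 8) of the summed TPM. Markers of liver summed to between 0 and 0.206 TPM and the 2 kidney markers were at 0. Heart markers summed to between 6.77 and 14.3 TPM, nearly all of it Myh6, at 10.2 TPM on average, whereas 8 of 8 fibroblast markers passed the minimum count, at a summed level of 103 to 208 TPM. Blood markers summed to between 225 and 1054 TPM and macrophage markers to between 32.1 and 102.8 TPM. In such bulk RNA, fewer cells of a type and less RNA per cell cannot be told apart.

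Prkab2 and Prkaa2 were the most abundant of the 8 transcripts in all mice. Levels between genes are given as TPM, for which counts were divided by exon length. Prkab2 (beta2) stood at 120.3 ± 11.5 TPM and Prkaa2 (alpha2) at 101.9 ± 20.7 TPM (SD, n = 8), above 95.9% and 95.1% of the tested genes. Prkag3 (gamma3) followed at 39.3 ± 12.3 TPM, Stk11 at 25.7 ± 3.05 TPM and Prkag1 (gamma1) at 20.0 ± 2.95 TPM. The remaining subunits were near or below the middle of the tested genes. Prkaa1 (alpha1) was at 6.57 ± 0.853 TPM, Prkab1 (beta1) at 5.78 ± 1.04 TPM and Prkag2 (gamma2) at 3.43 ± 0.926 TPM, the last above only 39.2% of the tested genes.

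**Figure D1:**
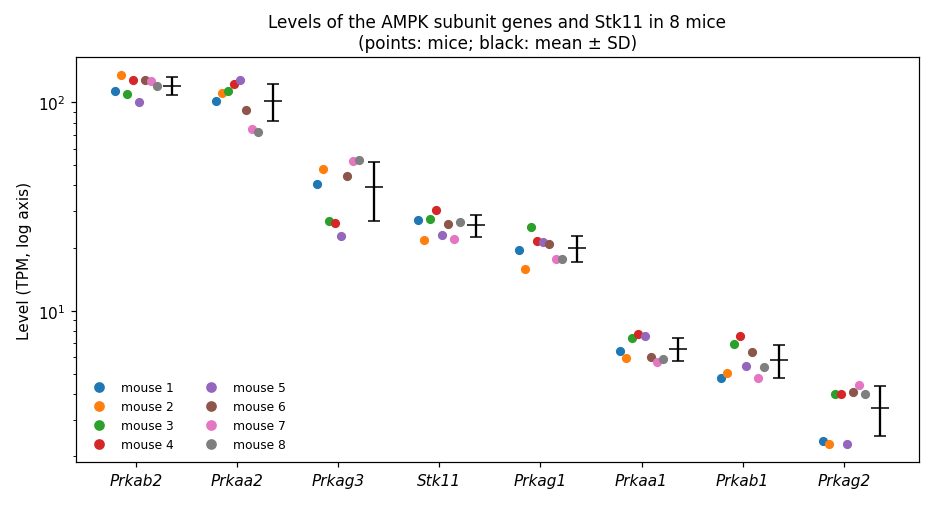
The y axis gives the level of each gene in TPM on a log axis, with 1 point per mouse and the mean ± SD over the 8 mice in black. Prkab2 and Prkaa2 lie above 70 TPM in each mouse, Prkaa1, Prkab1 and Prkag2 lie below 8 TPM in each mouse, and the 3 lowest points of Prkag3 belong to mice 3, 4 and 5.

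The order of the levels was tested within mice with an exact two-sided permutation of signs and Benjamini-Hochberg adjustment over the 28 pairs of genes, and 26 of the 28 pairs differed. The smallest p that 8 mice allow is 0.0078. How many pairs of other tested genes differ in level by this test is not given here. Prkab2 and Prkaa2 did not differ beyond their spread, since Prkab2 was higher in 6 of 8 mice with a mean log2 difference of 0.26 ± 0.38 (SD; exact permutation test, adjusted p = 0.102). Prkag3 and Stk11 did not differ beyond their spread either, with Prkag3 higher in 5 of 8 mice and a mean log2 difference of 0.55 ± 0.56 (SD; exact permutation test, adjusted p = 0.0648). The other neighbours in the order differed. Prkaa2 was 2.64-fold above Prkag3, Prkag1 was 2.90-fold above Prkaa1 and Prkab1 was 1.62-fold above Prkag2, each in 8 of 8 mice (exact permutation test, adjusted p = 0.00875 for each). Stk11 was 1.28-fold above Prkag1 in 8 of 8 mice (exact permutation test, adjusted p = 0.00875) and Prkaa1 was 1.13-fold above Prkab1 in 7 of 8 mice (exact permutation test, adjusted p = 0.0252). These last 2 orders rest on the gene lengths used. With the exon bases that no other gene covers as length and the counts unchanged, Prkag1 lay above Stk11, by a log2 difference of 0.38. With the longest transcript or the coding length, Prkaa1 lay below Prkab1, by -0.33 and -0.25. The Prkaa1 and Prkab1 call was also lost without mouse 1, 2, 3, 7 or 8 (exact permutation test, adjusted p = 0.0505 for each). The log2 difference stayed between 0.15 and 0.19 in these runs of 7 mice, beside 0.18 with all mice. Of the pairs further apart in the order, Prkaa1 and Prkag2 no longer differed with the longest transcript (log2 difference 0.01, exact permutation test, adjusted p = 0.953). Prkag1 and Prkag3 no longer differed with the exon bases of no other gene (log2 difference -0.09, exact permutation test, adjusted p = 0.703). Prkab2 exceeded Prkaa2 with coding length and without mouse 5 (exact permutation test, adjusted p = 0.00875 and 0.0337), and Prkag3 exceeded Stk11 with the longest transcript (adjusted p = 0.0421).

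The catalytic alpha subunits were almost all alpha2 at the transcript level. Prkaa2 (ENSMUSG00000028518, chromosome 4, 105029874 to 105109890, minus strand, GRCm38) had between 10035 and 16453 normalized counts with a median of 12709. Mice 5, 2 and 1 were the highest and mouse 8 the lowest, and no gap set any of them apart. Prkaa1 (ENSMUSG00000050697, chromosome 15, 5143861 to 5181899, plus strand) had between 439 and 570 normalized counts with a median of 487. Mouse 5 was the highest for this gene too, and mouse 6 the lowest. Per length, Prkaa2 exceeded Prkaa1 15.4 ± 1.99-fold (SD, n = 8), and no mouse was under 12.3-fold. The share of Prkaa2 in the summed alpha TPM was 93.8% ± 0.778 (SD, n = 8), between 92.5% in mouse 8 and 94.9% in mouse 2.

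The beta subunits, the scaffold that joins alpha and gamma, were likewise almost all of 1 isoform. Prkab2 (ENSMUSG00000038205, chromosome 3, 97658193 to 97673812, plus strand) had between 7704 and 12385 normalized counts with a median of 10332. Mice 7 and 2 were the highest, and mice 3, 5 and 4 were the lowest. Prkab1 (ENSMUSG00000029513, chromosome 5, 116013586 to 116024508, minus strand) stayed between 262 and 309 normalized counts with a median of 284. Mouse 4 was its highest and mouse 1 its lowest. Per length, Prkab2 exceeded Prkab1 21.4 ± 4.20-fold (SD, n = 8), and its share of the summed beta TPM was 95.4% ± 0.876 (SD, n = 8), between 94.1% and 96.4%.

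The gamma subunits, which bind the adenine nucleotides, were mixed. Prkag3 (ENSMUSG00000006542, chromosome 1, 74738922 to 74749221, minus strand) had between 1290 and 3684 normalized counts with a median of 2635. Mice 3, 4 and 5 had 1363, 1290 and 1363 normalized counts, and the next lowest was mouse 6 with 2589. Prkag1 (ENSMUSG00000067713, chromosome 15, 98812797 to 98831521, minus strand) had between 619 and 764 normalized counts with a median of 729, and mice 2 and 4 were its lowest. Prkag2 (ENSMUSG00000028944, chromosome 5, 24862744 to 25100642, minus strand) had between 240 and 545 normalized counts with a median of 352. Its highest values were in mice 7, 8 and 6, and its lowest in mice 5, 2 and 1.

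Gamma3 led the gamma class on average, at 61.3% ± 10.4 of the summed gamma TPM (SD, n = 8), with gamma1 at 33.2% ± 9.59 and gamma2 at 5.52% ± 1.47. The share of Prkag3 was 47.8%, 50.7% and 49.3% in mice 3, 4 and 5 and between 64.0% and 72.4% in the other mice. The share of Prkag1 mirrored it, at 45.1%, 41.6% and 45.8% in mice 3, 4 and 5 and between 23.7% and 31.3% in the other mice. In these 3 mice the Prkag3 level came close to that of Prkag1, and over all 8 mice the ratio of Prkag3 to Prkag1 per length ran from 1.06 to 3.001. The gamma shares depend on exon length more than the others, since 43.7% of the Prkag1 exon bases are also exons of B130046B21Rik on the opposite strand, and how reads there were assigned is not given in the sources used here. B130046B21Rik itself had at most 4 counts. Prkag2 likewise shares 795 exon bases, 12.3% of its exon length, with Prkag2os2 on the opposite strand, which was at 0 in each library. As an alternative, lengths were cut to the exon bases of no other gene, while all counts of each gene were kept. This would be right only if no read in the shared bases was counted, which is not known. The shares of Prkag3 and Prkag1 were then 48.9% and 46.0%. Prkag3 lay below Prkag1 in mice 3, 4 and 5 in this setting, at ratios of 0.597, 0.687 and 0.606, and above it in the other mice, at 1.17 to 1.69.

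**Figure D2:**
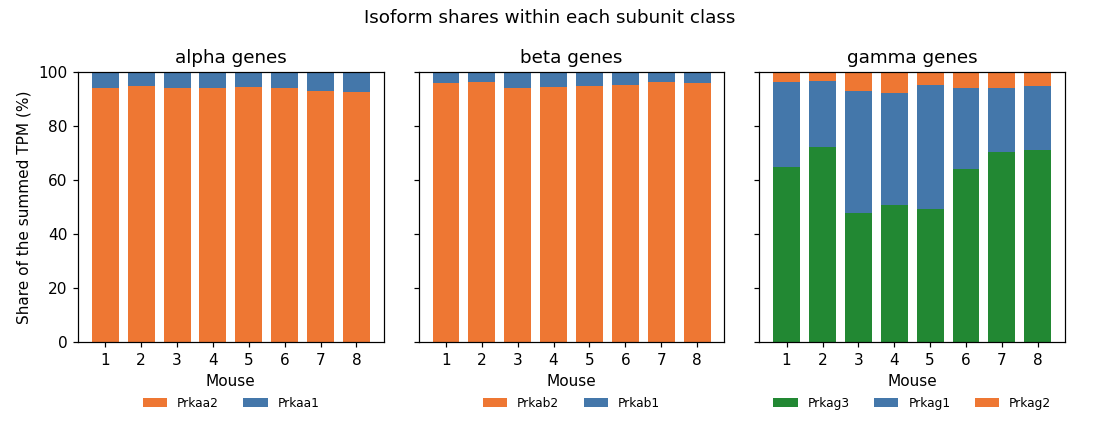
The bars give each isoform's share of the summed TPM of its class, in percent, for the 8 mice, with alpha genes on the left, beta genes in the middle and gamma genes on the right. Prkaa2 and Prkab2 hold over 92% of their class in each mouse, while the Prkag3 share falls to between 47.8% and 50.7% in mice 3, 4 and 5.

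Since an AMPK complex holds 1 subunit of each class, the summed TPM of the 3 classes was compared. The alpha total was 108.4 ± 21.4 TPM, the beta total 126.1 ± 11.6 TPM and the gamma total 62.7 ± 10.4 TPM (SD, n = 8). The gamma total was the lowest of the 3 in each of the 8 mice. The beta total exceeded the gamma total 2.03-fold, a mean log2 ratio of 1.02 ± 0.21 (SD; exact permutation of signs, adjusted p = 0.0117 over 3 comparisons). That log2 ratio was 0.65 with the longest transcript, 0.68 with the exon bases of no other gene and 2.41 with coding length. The alpha total exceeded the gamma total 1.72-fold, a mean log2 ratio of 0.78 ± 0.54 (SD; exact permutation of signs, adjusted p = 0.0117). This excess of alpha was lost with the longest transcript as length (log2 ratio 0.36, exact permutation, adjusted p = 0.0938) and with the exon bases of no other gene (0.44, adjusted p = 0.0703), while with coding length the log2 ratio was 1.77. Alpha and beta did not differ beyond their spread, with alpha higher in mice 3 and 5 only and a mean log2 ratio of -0.24 ± 0.37 (SD; exact permutation of signs, adjusted p = 0.117). Without mouse 5, the ratio of alpha to beta was -0.32 (exact permutation of signs, adjusted p = 0.0312), and with coding length it was -0.63 (adjusted p = 0.0078).

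Stk11 encodes LKB1, which phosphorylates AMPK and its related kinases in a complex with the pseudokinase STRAD and the scaffold MO25. Stk11 (ENSMUSG00000003068, chromosome 10, 80115803 to 80130682, plus strand) had between 1706 and 2238 normalized counts with a median of 1880. Mice 1 and 8 were the highest and mice 5 and 3 the lowest, and no gap set any of them apart. Per length, Prkaa2 exceeded Stk11 in each mouse, with a median of 3.86-fold and at most 5.54-fold. The exons of Stk11 share 232 bases, 5.07% of its exon length, with Cbarp on the opposite strand, which had 15 to 33 counts against at least 1666 for Stk11.

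The spread between mice differed from gene to gene and was widest in Prkag3 and Prkag2. The coefficient of variation (CV) of the normalized counts was 40.1% for Prkag3, 28.8% for Prkag2, 17.4% for Prkab2 and 17.1% for Prkaa2. It was 9.82% for Stk11, 8.42% for Prkag1, 8.10% for Prkaa1 and 5.79% for Prkab1. The median CV of the 8 genes, 13.4%, lay beside a median of 15.6% over all tested genes. A chi-square test against counting error with adjustment over all tested genes called 7 of the 8 genes, beside 81.0% of all tested genes, so the count of 7 is near the background. Prkab1 was the exception (adjusted p = 0.502), and its CV did not exceed the 5.95% that counting error alone gives at its depth. Scaled by library totals, Prkab1 was called too (adjusted p = 4.93e-06) with a CV of 13.98%, and without mouse 5 Prkaa1 was no longer called (adjusted p = 0.137). Prkag3 had an edgeR biological coefficient of variation of 0.340, above 97.6% of the tested genes, and its highest mouse was 2.86-fold above its lowest.

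Prkag3 was also the only 1 of the 8 genes whose mice fell into separate sets. Its largest gap between neighbouring mice took 0.611 of the whole range on the log2 scale, a gap of over 0.5 of the range being the criterion, which was chosen after the values were seen. Of all tested genes, 10.6% had such a gap, so 1 of 8 is near the background. No mouse stood apart alone in any of the 8 genes by Dixon's test, beside 6.00% of all tested genes.

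**Figure D3:**
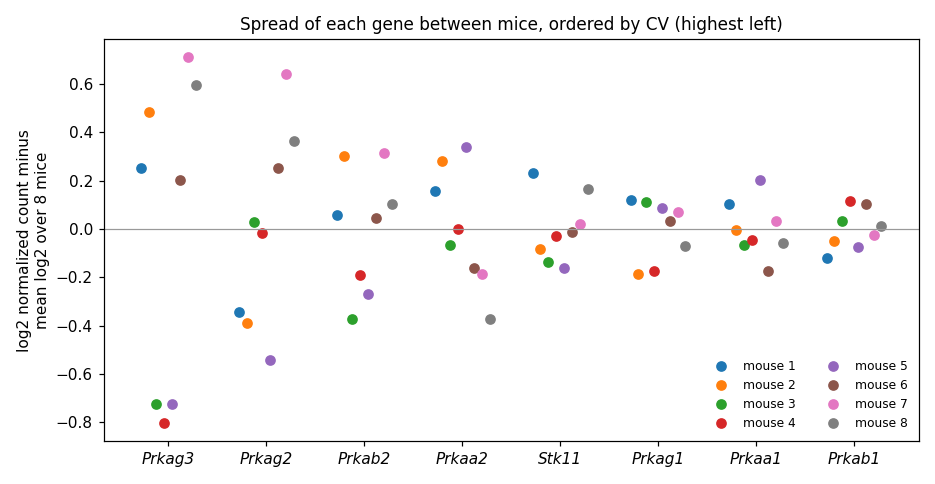
The y axis gives the log2 normalized count of each mouse minus the mean log2 over the 8 mice, with genes ordered from the highest CV on the left. Prkag3 spans the widest range, with mice 3, 4 and 5 at the bottom, and Prkab1 spans the narrowest.

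Whether the subunits vary together between mice was examined with Pearson correlations of log2(normalized count + 1) over the 8 mice and an exact permutation of all pairings of the mice, adjusted over 28 pairs. The 7 pairs with Prkag3 are given without a coefficient, because its mice fall into separate sets of 3 and 5. Of the other 21 pairs, 1 passed the adjusted threshold and 2 had an unadjusted p under 0.05. No share over pairs of other tested genes is given to set beside these counts. Prkaa2 and Prkag2 varied in opposite directions, with r = -0.92 (exact permutation p = 0.00218, adjusted p = 0.0309) and rho = -0.98 (exact permutation p = 0.000397, adjusted p = 0.0111). Without the 2 mice farthest from the median of Prkaa2, r was -0.93. By normalized counts, the 3 mice highest in Prkaa2 (mice 5, 2 and 1) were the 3 lowest in Prkag2. The 3 lowest in Prkaa2 (mice 8, 7 and 6) were the 3 highest in Prkag2 on that scale. In TPM the lowest mice of both genes were the same, but the highest were not. Prkaa2 was then highest in mice 5, 4 and 3, at 127.8, 122.4 and 113.1 TPM, and Prkag2 in mice 7, 6 and 4. The TPM ratio of Prkaa2 to Prkag2 ran from 17.0 to 55.7. The call did not survive scaling by library totals (r = -0.72, exact permutation, adjusted p = 0.268), and it was lost on leaving out any of mice 1 to 6, where r stayed between -0.88 and -0.92 and the adjusted p rose to between 0.0861 and 0.147.

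Prkaa1 and Prkab1 were the other pair with an unadjusted p under 0.05, with r = -0.81 (exact permutation p = 0.0135, adjusted p = 0.126), rho = -0.81 (exact permutation p = 0.0218, adjusted p = 0.203) and r = -0.83 once the 2 mice farthest from the Prkaa1 median were left out. With edgeR's TMM factors this pair passed, at r = -0.87 (exact permutation, adjusted p = 0.0264). With the deposited scaling and with TMM factors alike, Prkab1 had no spread beyond counting error (adjusted p = 0.502 and 0.548), so both coefficients rest on differences of that order.

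By normalized counts, Prkab2 and Prkag3 shared their lowest mice. Mice 3, 4 and 5 were the 3 lowest for both, with 7704, 8721 and 8276 normalized counts of Prkab2 against 10286 to 12385 in the other mice. The share of all tested genes split between the same mice is not given here. In TPM, Prkag3 was lowest in these mice too, but Prkab2 was lowest in mice 5, 3 and 1, at 100.5, 109.7 and 113.7 TPM. Mouse 4, at 128.4 TPM of Prkab2, was below mouse 2 only, at 134.9 TPM. Over all 8 mice the pair had an adjusted p of 0.0309 in the exact permutation test of r and 0.0639 in that of rho. Its coefficient would rest on the gap between the sets, and neither set holds 6 mice. The adjusted p was 0.0704 with library totals, between 0.0861 and 0.147 without mouse 1, 3, 4, 5, 6 or 7, and 0.05 without mouse 2 (exact permutation). It was 0.0264 with TMM factors, 0.0309 with a pseudocount of 5, 0.0132 with GC and length trends removed and 0.0472 without mouse 8 (exact permutation). Mice 3, 4 and 5 were the 3 highest in the share of Myh7 and Myh2, the slow and the fast oxidative myosin heavy chains, among the adult myosin heavy chains, at 6.48%, 5.84% and 6.60% against 4.39% to 5.56% in the other mice. Myh4 itself was lowest in these 3 mice, at 10133, 11929 and 13442 TPM against 13534 to 19154 TPM, while their Myh2 levels of 803, 843 and 1051 TPM lay within the 769 to 1199 TPM of the other mice. In the share of counts taken by the 10 most abundant genes, mice 3, 4 and 5 were the 3 lowest, at 18.8%, 19.6% and 21.7% against 22.7% to 26.2%. Myh4 is part of this share and of the summed myosin heavy chains, so these are not separate observations. The part of fibre type and of library composition in the Prkag3 and Prkab2 levels was not tested.

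**Figure D4:**
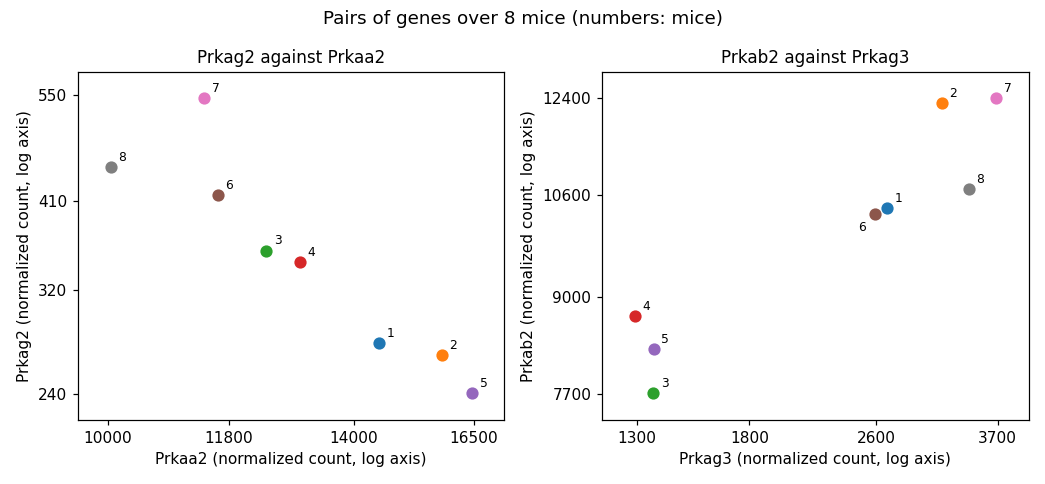
Normalized counts on log axes are plotted for Prkag2 against Prkaa2 on the left and for Prkab2 against Prkag3 on the right, with 1 numbered point per mouse. Prkag2 falls as Prkaa2 rises across the 8 mice, while on the right mice 3, 4 and 5 lie apart at 1290 to 1363 counts of Prkag3 and at the lowest Prkab2 counts.

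The 8 genes were set against 4 measures of the samples, the Myh7 and Myh2 share, a fibroblast score, the library total and the share of counts in the 10 leading genes, with adjustment over 32 relations. Of the 28 relations without Prkag3, none passed the adjusted threshold in the exact permutation of pairings by r or by rho, and 5 had an unadjusted p under 0.05. The share of other tested genes related to these measures is not given, so the 5 cannot be set against a background. Prkab2 was lower where the Myh7 and Myh2 share was higher, with r = -0.90 (exact permutation p = 0.00377, adjusted p = 0.105), rho = -0.79 (exact permutation p = 0.0279, adjusted p = 0.223) and r = -0.76 once the 2 mice with the most distant shares were left out. Prkab2 and the share of the 10 most abundant genes had r = 0.85 (exact permutation p = 0.00982, adjusted p = 0.105), rho = 0.76 (exact permutation p = 0.0368, adjusted p = 0.235) and r = 0.90 without the 2 farthest mice. Without mouse 7, the relation of Prkab2 to the Myh7 and Myh2 share passed (r = -0.96, exact permutation, adjusted p = 0.0444).

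The fibroblast score, the mean z-score of 8 fibroblast markers, had coefficients of opposite sign with Prkaa2 and Prkag2, and neither passed the adjusted threshold. Its r was 0.78 with Prkaa2 (exact permutation p = 0.0252, adjusted p = 0.134; rho = 0.83, p = 0.0154, adjusted p = 0.223) and 0.50 without the 2 farthest mice. With Prkag2 its r was -0.73 (exact permutation p = 0.0410, adjusted p = 0.187; rho = -0.81, p = 0.0218, adjusted p = 0.223) and -0.65 without the 2 farthest mice. Prkag1 and the library total had r = 0.74 (exact permutation p = 0.0242, adjusted p = 0.134), rho = 0.81 (exact permutation p = 0.0218, adjusted p = 0.223) and r = 0.66 without the 2 farthest mice. The part of connective tissue and of depth in these levels was not tested.

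For each of the 8 genes, the genes most like it over the 8 mice were sought among 15114 others by Pearson's r of log2(normalized count + 1), as a description, since the top of so long a list is high over 8 mice in any case. The gene most like Prkaa1 was Cab39, which encodes MO25, the scaffold of the LKB1 complex (r = 0.956). Cab39 had between 5669 normalized counts in mouse 6 and 8319 in mouse 5, the same lowest and highest mouse as Prkaa1. Fam20a, a pseudokinase of the secretory pathway, came next (r = 0.944, but rho = 0.738). Prkaa2 was most like Gm37240 (r = 0.979) and Aak1, a kinase of clathrin-mediated endocytosis (r = 0.977). Aak1 fell to r = 0.885 once each library's trend on GC content and length was removed.

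Prkab1 was most like Suox, the mitochondrial sulfite oxidase (r = 0.967), and Slc37a2, a sugar phosphate transporter (r = 0.957). Prkab2 was most like Nmrk1, a nicotinamide riboside kinase that feeds NAD synthesis (r = 0.973), and Nrep (r = 0.971). Prkag1 was most like the RNA helicase Dhx16 (r = 0.965, but rho = 0.738) and the pseudogene Gm5863 (r = 0.950, rho = 0.976). Prkag2 was most like Clns1a, a chaperone of spliceosome assembly (r = 0.985), whose 8 mice stood in the same order, and the pseudogene Gm6654 (r = 0.975). Stk11 was most like Neil1, a DNA glycosylase (r = 0.968), and Ptdss1, a phosphatidylserine synthase (r = 0.964). For Prkag3, the list was led by Gm47155 and by Pgm1, a phosphoglucomutase of glycogen metabolism. Pgm1 had 10040, 9848 and 10012 normalized counts in mice 3, 4 and 5 and between 17848 and 20809 in the other mice, so it was split between the same mice as Prkag3.

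The other genes of the pathway were described by role. All 4 genes of the LKB1 partners passed the minimum count. Cab39 was the highest at 58.4 ± 9.28 TPM (SD, n = 8), at 47.7 to 72.8 TPM against 22.0 to 30.6 TPM for Stk11 with no overlap between the genes, and its paralog Cab39l was the lowest at 5.10 ± 0.582 TPM. The STRAD genes Stradb and Strada lay between them at 18.9 ± 3.89 and 9.77 ± 0.975 TPM. Of the other upstream kinases, Map3k7 (TAK1) was at 22.3 ± 3.16 TPM, whereas the calcium-dependent kinases Camkk2 and Camkk1 were at 0.752 ± 0.157 and 0.155 ± 0.0838 TPM, and Camkk1 with 5 to 15 counts did not pass the minimum count. Stk11 and Map3k7 thus stood at like levels, and their difference was not tested.

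All 14 phosphatase subunits and regulators passed the minimum count. The highest was Ppp1r3c, which directs protein phosphatase 1 to glycogen, at 232 ± 48.8 TPM (SD, n = 8), and the lowest was Ppm1e, a phosphatase of the AMPK loop, at 0.285 ± 0.0535 TPM. Of the 13 AMPK-related kinases, which LKB1 also activates with the exception of Melk, 9 passed the minimum count. Sik1, a salt-inducible kinase, was the highest at 40.8 ± 19.0 TPM, and Brsk2, a kinase of neurons, was the lowest and did not pass, with at most 5 counts. All 19 substrates and regulated genes given here passed. Gys1, the muscle glycogen synthase that AMPK inhibits, was the highest at 139 ± 50.5 TPM, and Tfe3, a transcription factor of lysosomal genes, was the lowest of these at 1.78 ± 0.289 TPM. The median CV of the genes that passed was 12.1% for LKB1 partners, 18.4% for phosphatases and regulators, 14.7% for AMPK-related kinases and 16.4% for substrates, beside 15.6% over all tested genes.

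**Figure D5:**
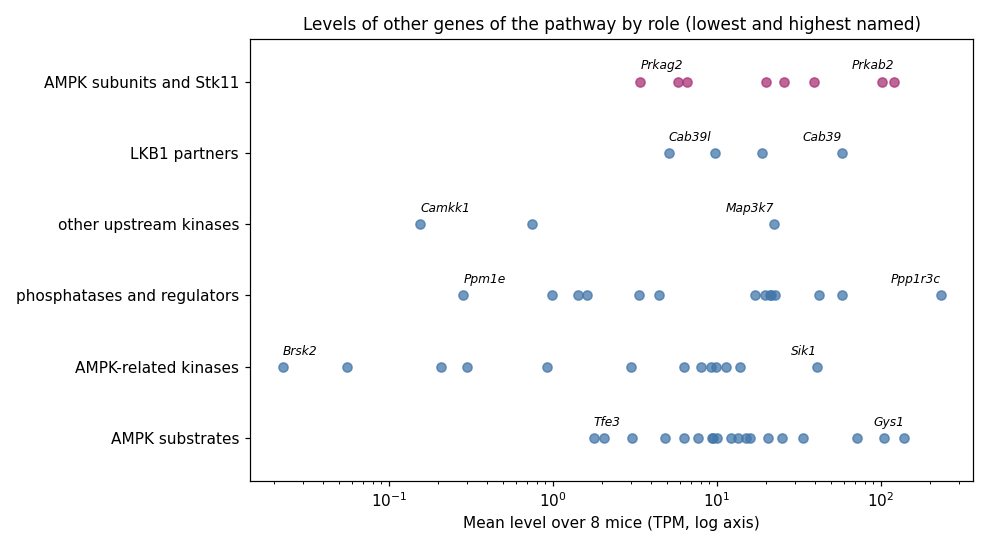
The x axis gives the mean level over the 8 mice in TPM on a log axis, with 1 point per gene and 1 line per role, and the lowest and highest gene of each role are named. Camkk1 and Brsk2 lie below 0.2 TPM, while Ppp1r3c at 232 TPM and Gys1 at 139 TPM lie above Prkab2 at 120.3 TPM.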

How the data were processed

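Poly-A RNA of 8 muscles was sequenced as mRNA-seq. The authors aligned reads to GRCm38 with STAR and counted them per gene with summarizeOverlaps, and FastQC and fastp are named in the submitters' processing notes. The annotation release, counting mode and use of strand are not given in the sources used here. The deposited signal is a count divided by 1 factor per library, since 100% of the values were whole multiples of 1 read within 0.01 of a read. The authors used DESeq2, and the factor was taken to be its size factor, which the multiples alone do not show. These multiples were used as counts. TPM was computed from the counts and the union of exons in GENCODE M21, which held 55227 of the 55487 genes. Counts are reads without molecular identifiers, so counting error is only part of the error.

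The members and lists were chosen with earlier results of these data known. A gene was tested where each library held 10 or more counts of it. Named were the 8 genes, the highest and lowest gene of each pathway role, all LKB1 partners and other upstream kinases, the 2 genes most like each member and the adult myosin heavy chains. Pgm1, Cab39 and Clns1a were given by mouse after their values were seen. Levels were compared as log2(TPM + 0.5) by exact two-sided permutation of signs within mice (256), and correlations by exact two-sided permutation of pairings, each with Benjamini-Hochberg adjustment. 1 gene of the substrate list is not reported here. The mice are separate samples of 1 group, so no group comparison was made. Alternatives were other gene lengths, TMM factors, library totals, pseudocounts, Spearman correlation, the median, all genes with a count, removal of GC and length trends and leaving out each mouse. Exon bases of no other gene were chosen as a length after seeing the data, and the counts in that setting stayed those of the whole gene. The scripts were checked on simulated counts. The software was R 4.3.3 with edgeR 4.0.16, and Python 3.11.15 with scipy 1.17.1, pandas 2.3.3, numpy 2.4.6 and Biopython 1.88.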

Additional observations from a re-analysis of the deposited data

Results flagged for a closer look

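No mouse stood apart from the other 7 in any of the 28 values tested with Dixon's criterion, which were the normalized counts of the 8 genes, the class totals, the isoform shares, the sample measures and the TPM ratios. The largest gap took 0.379 of the range and was that of the library total, which is below the critical value for 8 samples.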

How the results depend on the processing

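Annotated length sets every comparison between genes, and the transcripts in use were not measured. A scaling per library cannot change shares and ratios within a library and so is no test of them. With the longest transcript, the alpha total over the gamma total had a log2 ratio of 0.36 (adjusted p = 0.0938), the Prkab2 share was 93.5% and the Prkag2 share 8.00%. With coding length, the alpha total over the beta total was -0.63 (adjusted p = 0.0078), and the shares of Prkaa2, Prkab2 and Prkag2 were 96.3%, 97.2% and 8.45%. With no length correction, the shares were 96.3% for Prkaa2, 97.2% for Prkab2, 21.9% for Prkag1 and 10.8% for Prkag2. With the exon bases of no other gene, chosen after seeing the data, alpha over gamma was 0.44 (adjusted p = 0.0703), and the shares of Prkag1 and Prkag3 were 46.0% and 48.9%. The level of Prkaa1 minus that of Prkab1 turned from 0.18 to -0.33 with the longest transcript and to -0.25 with coding length (log2), and that of Prkag1 minus Stk11 turned from -0.36 to 0.38 with the exon bases of no other gene. Over the other lengths and the left-out mice, the adjusted p of the exact permutation test ran from 0.0078 to 0.0938 for alpha over gamma, from 0.0078 to 0.234 for alpha over beta and from 0.0078 to 0.0234 for beta over gamma.

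Of the 21 pairs of genes without Prkag3, 2 were called with TMM factors, 0 with library totals and between 0 and 1 on leaving out a mouse, where 7 mice allow fewer pairings. Over 13 alternatives, the adjusted p of Prkaa2 and Prkag2 ran from 0.00556 to 0.268. Leaving out a mouse gave between 0 and 1 of the 28 relations without Prkag3, and moved alpha over beta between -0.32 and -0.17. No pairing of mice between groups was possible because all 8 mice belong to the same group. Depth limits Prkab1 most, whose spread exceeded counting error with library totals but not with the deposited scaling or TMM factors.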
